A study of Mus musculus with 6 samples.

Results

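The genes described here encode 10 enzymes that make serine, asparagine, proline and cysteine or feed the mitochondrial folate cycle. They are Phgdh, Psat1, Psph, Shmt2, Mthfd2, Asns, Aldh18a1, Pycr1, Cbs and Cth, and they were found by gene symbol among the 54532 genes listed in the deposited table of mouse N2a cells. The set was chosen by pathway with the difference between si-circRtn4 and si-NC already known, so that difference is given below as a description and supports nothing by itself.

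N2a (Neuro-2a) is a mouse neuroblastoma cell line, and its strain is labelled C57BL/6. Cells were kept in MEM with 10 percent fetal bovine serum and transfected with si-NC, a negative control siRNA (3 libraries), or with si-circRtn4, an siRNA against a circular RNA from the Rtn4 gene (3 libraries). RNA-seq asked which mRNAs differ after this transfection. The labels name only the growth medium, whereas the general methods of the study describe a retinoic acid medium that differentiates N2a cells, so whether these libraries came from growing or differentiating cells is not given in the sources used here. All libraries came from 1 cell line, nothing in the labels says that replicates were separate cultures, and p-values then measure only the spread between these libraries. Gene FPKM (fragments per kilobase of gene, scaled to the depth of the library) does not separate circRtn4 from linear Rtn4 mRNA, so the knockdown could not be read from the table.

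The 6 libraries held 13541198 to 15122063 reads on genes. Of 10 markers of noradrenergic neuroblastoma cells, 8 were above 1 FPKM in every library, and Th and Dbh were under 1 FPKM in si-circRtn4. Th was at 2.26 to 2.96 FPKM in si-NC and at 0.565 to 0.815 in si-circRtn4. Dbh was at 3.72 to 8.52 FPKM in si-NC and at 0.522 to 0.664 in si-circRtn4. The summed FPKM of the 10 markers was 1018 to 1132 in si-NC and 725 to 1009 in si-circRtn4. Tubb3 was the largest part of that sum, at 442 to 601 FPKM in si-NC and 308 to 516 in si-circRtn4. Of 13 markers of immune, endothelial, glial, fibroblast and liver cells, 10 were under 1 FPKM in every library, Aqp4 was at 0 in all of them, and the summed FPKM was 6.09 to 7.33 in si-NC and 5.26 to 7.94 in si-circRtn4. The part of these markers in the values below was not tested. In bulk RNA, fewer cells of a type and less RNA per cell cannot be told apart.

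Serine is made from a glycolytic intermediate by Phgdh, Psat1 and Psph in turn. Shmt2 and Mthfd2 then move the side-chain carbon of serine into mitochondrial folates, which supply purine and thymidylate synthesis. Asns makes asparagine, Aldh18a1 and Pycr1 make proline from glutamate, and Cbs and Cth turn homocysteine and serine into cysteine. Many of these genes are known targets of ATF4, the transcription factor of amino acid shortage and of the integrated stress response, and neuroblastoma cells are known for high serine synthesis.

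All 10 genes were above the filter of a mean of 1 FPKM, so all were among the 12749 genes tested. On the scale of log2(FPKM + 1), 8 of the 10 differences between group means were positive and 2 were negative, with a median of 0.16 beside 0.00197 over all genes tested. At a Benjamini-Hochberg adjusted p under 0.05 in limma, Phgdh, Pycr1 and Cth were called higher in si-circRtn4, and none of the 10 was called lower. Over all genes tested, 9.19% were called, 4.36% higher (556 genes) and 4.82% lower (615 genes). With the replicate number as a block, 19.0% of all genes were called, 9.29% higher (1185 genes) and 9.75% lower (1243 genes). On TPM, which moved the median of all genes by 0.080, the counts were 977 and 400, so that 71.0% of the calls were higher against 47.5%. The same 3 genes were those whose groups did not overlap, all higher in si-circRtn4, while 16.2% of all genes did not overlap and were higher and 15.5% did not overlap and were lower. Since the set was chosen on this contrast, nothing is read from these counts.

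**Figure D1:**
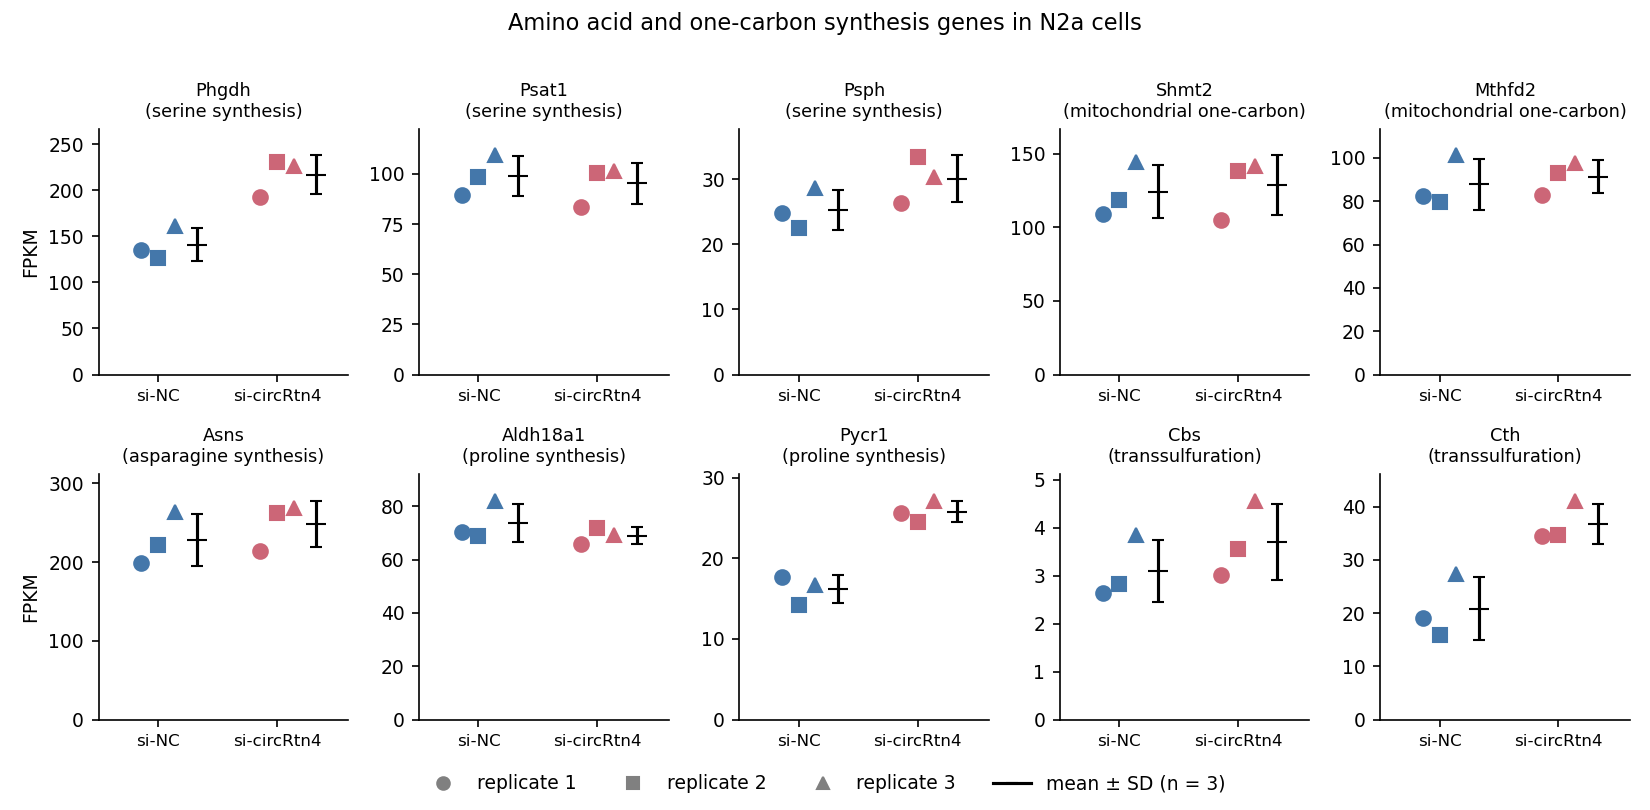
FPKM (vertical axes, from 0) of each of the 10 genes in the 3 si-NC (blue) and 3 si-circRtn4 (red) libraries, with 1 symbol per replicate number and the mean ± SD in black. The groups lie apart for Phgdh, Pycr1 and Cth and overlap for the other 7 genes.

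The first enzyme of serine synthesis was higher with si-circRtn4, the second was not, and the third lay between. Phgdh (ENSMUSG00000053398, GRCm38 chr3:98313170-98339990, minus strand) encodes phosphoglycerate dehydrogenase, which commits carbon to serine. Its level was 135, 127 and 161 FPKM in si-NC replicates 1 to 3 and 193, 231 and 227 FPKM in si-circRtn4 replicates 1 to 3. Every si-circRtn4 library was above every si-NC library. The means were 141 ± 17.7 and 217 ± 21 FPKM (SD, n = 3 each), a ratio of 1.54, and the log2 difference was 0.62 with a standard error of 0.12. In the promoter of Phgdh, the letters of the core of an antioxidant response element, TGACNNNGC, lay on the strand opposite the gene. The stretch around them is shown because Phgdh was one of the genes that differed most, with the match in capitals, read along the gene's strand (chr3:98340004-98340033, GRCm38.p6).
Phgdh promoter: tgcccggggagGCGGAGTCAgcagagttta

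Psat1 (ENSMUSG00000024640, chr19:15904678-15947337, minus strand) encodes phosphoserine aminotransferase. Its level was 89.3, 98.6 and 109 FPKM in si-NC and 83.4, 100.5 and 102 FPKM in si-circRtn4. The groups covered nearly the same range, with means of 99.02 ± 9.91 and 95.2 ± 10.2 FPKM (SD, n = 3 each) and a log2 difference of -0.06 (SE 0.11). Rescaling each library to the same FPKM sum (TPM) turned this difference to 0.03, and leaving out si-NC replicate 3 or si-circRtn4 replicate 1 turned it to 0.01 and 0.03. It was -0.13 with si-NC replicate 1 left out, and -0.10 and -0.11 with si-circRtn4 replicate 2 or 3 left out.

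Psph (ENSMUSG00000029446, chr5:129765558-129787449, minus strand) encodes the phosphatase that releases serine. Its level was 24.8, 22.4 and 28.6 FPKM in si-NC and 26.3, 33.4 and 30.4 FPKM in si-circRtn4. The lowest si-circRtn4 library was below the highest si-NC library, and the log2 difference was 0.24 (SE 0.12). Psph shares 452 of its 4329 exon bases with Cct6a on the opposite strand, which was at 99.5 to 119.8 FPKM, and without a stated strand setting reads in that stretch cannot be assigned to either gene.

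The mRNAs of Shmt2 and Mthfd2, the mitochondrial folate enzymes of this set, differed between the groups by less than the spread of the libraries. Shmt2 (ENSMUSG00000025403, chr10:127517123-127522444, minus strand), the serine hydroxymethyltransferase that yields glycine, was at 109, 119 and 144 FPKM in si-NC and at 105, 138 and 142 FPKM in si-circRtn4. Mthfd2 (ENSMUSG00000005667, chr6:83305691-83325908, minus strand), which oxidises the folate-bound carbon in the next step, was at 82.7, 79.6 and 101 FPKM in si-NC and at 83.1, 93.2 and 97.7 FPKM in si-circRtn4. In both genes si-NC replicate 3 was above the highest si-circRtn4 library, and the groups overlapped. The log2 differences were 0.05 (SE 0.15) for Shmt2 and 0.06 (SE 0.11) for Mthfd2, and each turned negative when a single library was left out, to -0.04 for Shmt2 without si-NC replicate 1, -0.01 without si-circRtn4 replicate 2 and -0.03 without si-circRtn4 replicate 3, and to -0.0047 for Mthfd2 without si-NC replicate 2. For Shmt2 it was 0.02 with si-NC replicate 2 left out, 0.16 with si-NC replicate 3 and 0.18 with si-circRtn4 replicate 1 left out. For Mthfd2 it was 0.02 with si-NC replicate 1 left out, 0.17 with si-NC replicate 3, 0.13 with si-circRtn4 replicate 1 and 0.01 with si-circRtn4 replicate 3 left out.

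Asns (ENSMUSG00000029752, chr6:7675169-7693254, minus strand) encodes asparagine synthetase, a classical ATF4 target, and was the most abundant of the 10 mRNAs. Its level was 199, 221 and 263 FPKM in si-NC and 214, 262 and 268 FPKM in si-circRtn4. The groups overlapped, with means of 228 ± 32.8 and 248 ± 29.6 FPKM (SD, n = 3 each) and a log2 difference of 0.13 (SE 0.13). That difference was 0.03 with si-NC replicate 1 left out and 0.24 with si-NC replicate 3 left out, and 0.23, 0.08 and 0.07 when si-circRtn4 replicate 1, 2 or 3 was. The promoter of Asns held the letters TGATGNAA, the core of the C/EBP-ATF response element that ATF4 binds, which is shown in capitals (chr6:7693214-7693243, GRCm38.p6, along the gene's minus strand, first base of the match 23 bases before the RefSeq start).
Asns promoter: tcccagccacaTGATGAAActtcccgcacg

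In proline synthesis the last enzyme differed between the groups and the first did not. Aldh18a1 (ENSMUSG00000025007, chr19:40550257-40588463, minus strand), which makes pyrroline carboxylate from glutamate, was at 70.3, 69.0 and 82.1 FPKM in si-NC and at 65.7, 72.0 and 69.3 FPKM in si-circRtn4. Its groups overlapped, and the log2 difference was -0.09 (SE 0.09), which became -0.01 with si-NC replicate 3 left out and -0.06 with si-circRtn4 replicate 1 left out. Pycr1 (ENSMUSG00000025140, chr11:120635712-120643769, minus strand), the mitochondrial reductase that completes proline, was at 17.6, 14.2 and 16.7 FPKM in si-NC and at 25.6, 24.5 and 27.1 FPKM in si-circRtn4. All si-circRtn4 libraries were above all si-NC libraries. The means were 16.2 ± 1.79 and 25.7 ± 1.31 FPKM (SD, n = 3 each), a ratio of 1.59, with a log2 difference of 0.64 (SE 0.09). Of the 9 promoters that could be read, that of Pycr1 was the only one with the stricter form TGATGCAA (chr11:120643833-120643862, GRCm38.p6, minus strand, match 103 bases before the RefSeq start).
Pycr1 promoter: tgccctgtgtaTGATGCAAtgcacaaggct

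The genes of the transsulfuration branch lay far apart in level. Cbs (ENSMUSG00000024039, chr17:31612623-31637199, minus strand), which joins homocysteine and serine to cystathionine, was at 2.64, 2.82 and 3.85 FPKM in si-NC and at 3.01, 3.56 and 4.57 FPKM in si-circRtn4. These values rest on 133 to 222 reads per library, the fewest of the set, and the groups overlapped, with a log2 difference of 0.20 (SE 0.16). The difference was 0.12 when si-NC replicate 1 was left out and 0.32 when si-NC replicate 3 was, and 0.31 and 0.07 when si-circRtn4 replicate 1 or 3 was. Cth (ENSMUSG00000028179, chr3:157894248-157925077, minus strand), which splits cystathionine into cysteine, was at 19.1, 16.0 and 27.3 FPKM in si-NC and at 34.4, 34.6 and 41.1 FPKM in si-circRtn4. The groups did not overlap, although si-NC replicate 3 stood well above the other si-NC libraries. The means were 20.8 ± 5.88 and 36.7 ± 3.80 FPKM (SD, n = 3 each), a ratio of 1.76, and the log2 difference of 0.82 (SE 0.18) was the largest of the 10.

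Of the 3 calls, that of Pycr1 was kept in all 15 other fits. The Phgdh call was kept in 10 of 15 and the Cth call in 9 of 15. Without a filter on low values the number of the 10 genes called higher fell from 3 to 1. Over all genes tested, that number fell from 556 of 12749 to 210 of 28442. For the 10 genes it was also 1 without si-NC replicate 1 (406 of 12764 over all genes) or 2 (157 of 12770). Without si-circRtn4 replicate 2 (224 of 12755) or 3 (325 of 12765) it was 1 too. It was 2 without si-circRtn4 replicate 1 (226 of 12717), these fits having fewer libraries. It was 3 without si-NC replicate 3 (311 of 12779), and 3 with the replicate number as a block (1185 of 12749). Calls over all genes thus also became fewer in each fit without a filter or with 1 library left out.

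**Figure D2:**
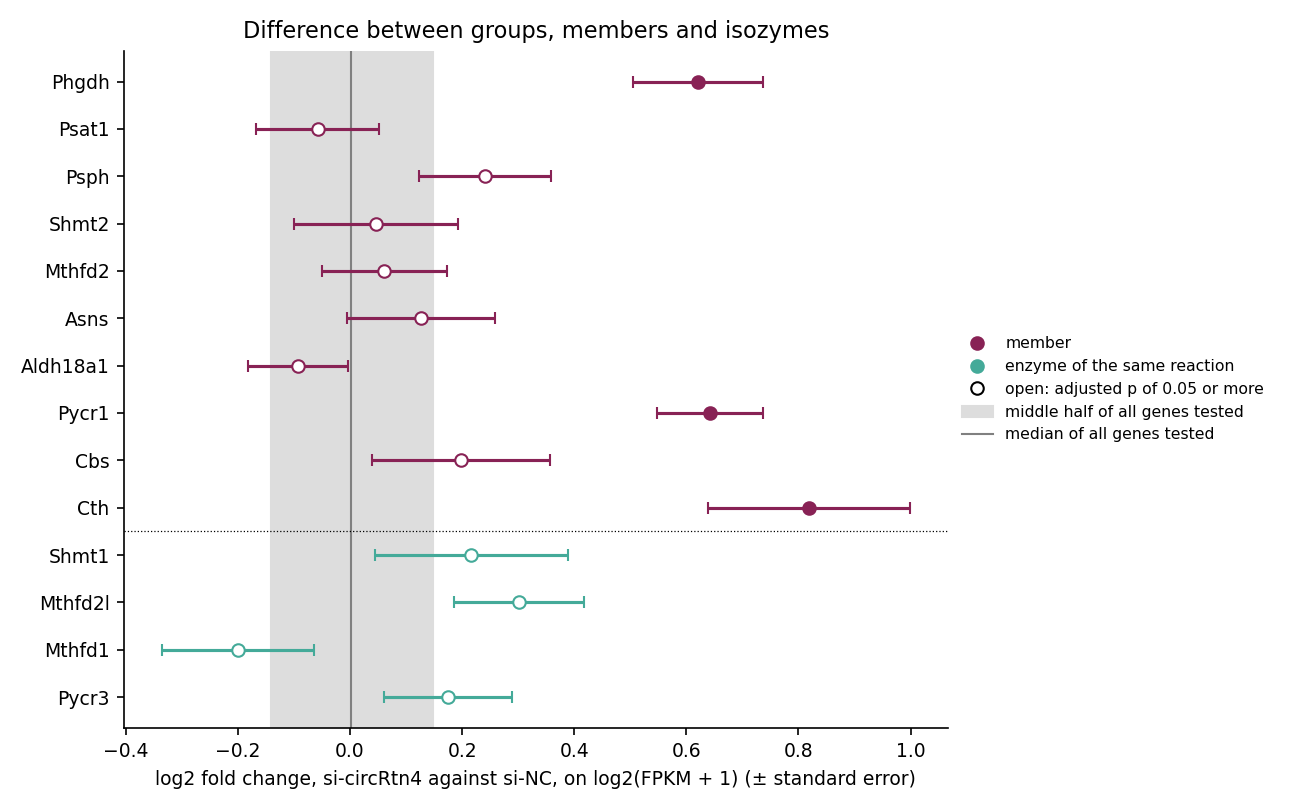
Log2 difference between si-circRtn4 and si-NC on log2(FPKM + 1) (horizontal axis) with its standard error, for the 10 genes (above the dotted line) and for 4 enzymes of the same reactions (below it). The band spans the lower to the upper quartile of all genes tested, from -0.14 to 0.15, and Phgdh, Pycr1 and Cth at 0.62, 0.64 and 0.82 lie to its right.

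Within each group the levels of the 10 mRNAs kept nearly the same order, compared on FPKM, which is per length. In si-NC, Asns was highest and did not overlap the next gene, Phgdh. Phgdh and Shmt2 overlapped, as did Psat1, Mthfd2 and Aldh18a1 with their neighbours in that order, and as did Psph, Cth and Pycr1. Cbs was lowest and apart from the rest. The si-NC mean of Asns was above that of 98.8% of the genes tested, Phgdh above 97.8%, Cth above 77.3%, Pycr1 above 70.7% and Cbs above 23.2%. In si-circRtn4, Phgdh overlapped Asns and no longer Shmt2, and Cth had moved above Psph and stood apart from its neighbours in the order. The order was the same on TPM in both groups, but TPM rescales each library as a whole and cannot change the order within it. Together the 10 genes took 0.247%, 0.251% and 0.298% of the reads on genes in si-NC and 0.276%, 0.321% and 0.316% in si-circRtn4, so these groups overlapped. Within replicate numbers the share was higher with si-circRtn4 in 3 of 3 pairs, by 0.0289, 0.0697 and 0.0187 percentage points, which holds the contrast that chose the genes.

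Within-group spread does not use the difference between the groups, and here the 10 genes moved together from library to library. In si-NC replicate 3, 9 of the 10 were at their highest of the 3 si-NC libraries, Pycr1 being the exception, while that library was the highest for 34.1% of all genes tested. In si-circRtn4 replicate 1, 9 of the 10 were at their lowest of the 3 si-circRtn4 libraries, Pycr1 again being the exception, against 37.0% of all genes. The median deviation of the 10 genes from their group means on log2(FPKM + 1) was -0.08, -0.11 and 0.20 in si-NC replicates 1 to 3 and -0.17, 0.07 and 0.10 in si-circRtn4 replicates 1 to 3. Over all genes tested the median deviation was at most 0.0084 in any library.

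The deviations of the 45 pairs of genes correlated over the 6 libraries with a median Pearson r of 0.83, and 43 of the 45 were above 0. The mean r was 0.72, beside 0.00084 for all pairs of genes tested. In that second mean positive and negative r cancel, so it does not show how large r between genes usually is over 6 libraries. The lowest was -0.09, between Psat1 and Pycr1, and the median r of Pycr1 with the other 9 genes was 0.29, whereas that of Shmt2 and of Mthfd2 was 0.89. These points share libraries and their depth, so they are a description. Among the si-NC libraries, replicate 3 had the fewest reads on genes (14100818), and among the si-circRtn4 libraries replicate 1 had the fewest (13541198). Atf4 was also highest in the first of these libraries within its group and lowest in the second within its group. The part of depth or of Atf4 in this spread was not tested.

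**Figure D3:**
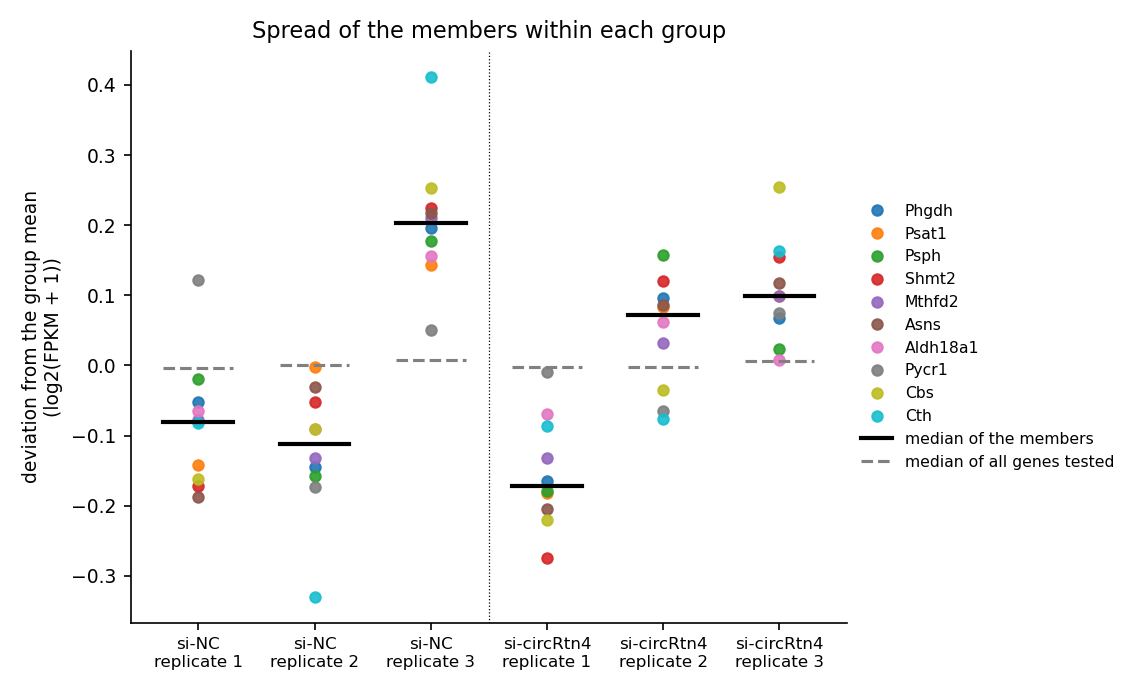
Deviation of each of the 10 genes from its own group mean on log2(FPKM + 1) (vertical axis) in each library (horizontal axis), with the median of the 10 genes (black bar) and of all genes tested (dashed grey bar). All 10 genes lie above 0 in si-NC replicate 3 and in si-circRtn4 replicate 3, and all lie below 0 in si-NC replicate 2 and si-circRtn4 replicate 1.

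Libraries with the same replicate number deviated together over all genes tested, and differences were therefore also taken within number. Phgdh differed by 0.51, 0.86 and 0.49 in pairs 1 to 3 on log2(FPKM + 1), Pycr1 by 0.51, 0.75 and 0.67, and Cth by 0.81, 1.07 and 0.57. Asns, which overlapped between the groups, was higher with si-circRtn4 in each pair, by 0.11, 0.24 and 0.03, and Psph by 0.08, 0.55 and 0.09. With Cbs (0.14, 0.25 and 0.20), 6 of the 10 genes were higher in all 3 pairs, against 28.4% of all genes tested. This count was chosen after the values had been seen and uses the contrast that chose the genes, so nothing is read from it.

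Several enzymes of this set have a relative that catalyses the same reaction in the cytosol or the mitochondria. Shmt1, the cytosolic relative of Shmt2, was at 10.5, 16.9 and 15.4 FPKM in si-NC and at 14.3, 18.4 and 16.8 FPKM in si-circRtn4, with a log2 difference of 0.22 (SE 0.17, limma adjusted p = 0.484). That difference was 0.02 when si-NC replicate 1 was left out, 0.34 when si-NC replicate 2 was and 0.14 when si-circRtn4 replicate 2 was. Mthfd2l, the mitochondrial relative of Mthfd2, differed by 0.30 (SE 0.12, limma adjusted p = 0.154). Its groups did not overlap, si-circRtn4 being higher, as in 16.2% of all genes tested. Mthfd1, the cytosolic enzyme, differed by -0.20 (SE 0.14, limma adjusted p = 0.409). The Mthfd1 value was -0.30 and -0.12 when si-NC replicate 1 or 2 was left out, and -0.09 and -0.31 when si-circRtn4 replicate 1 or 2 was. The log2 ratios of Shmt2 to Shmt1, of Mthfd2 to Mthfd2l and of Mthfd2 to Mthfd1 overlapped between the groups. Within replicate numbers, Mthfd2 to Mthfd1 was higher with si-circRtn4 in 3 of 3 pairs, from 1.96 to 2.17, from 1.54 to 1.90 and from 1.99 to 2.19 in log2 ratio. Mthfd2 to Mthfd2l was lower in 3 of 3 pairs, differing by -0.24, -0.14 and -0.34. Shmt2 to Shmt1 was lower in 2 of 3 pairs, differing by -0.47, 0.11 and -0.14. These ratios hold the members' own differences and are a description.

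For proline, Pycr3, the cytosolic relative of Pycr1, was at 51.7 to 52.8 FPKM in si-NC and at 53.8, 71.1 and 54.0 FPKM in si-circRtn4, a log2 difference of 0.18 (SE 0.11, limma adjusted p = 0.386). It became 0.04 with si-circRtn4 replicate 2, the highest library, left out. The log2 ratio of Pycr1 to Pycr3 did not overlap between the groups, with a mean of -1.64 ± 0.145 in si-NC and -1.17 ± 0.286 in si-circRtn4 (SD, n = 3 each). It was higher in 3 of 3 pairs, by 0.47, 0.30 and 0.63, but it holds the Pycr1 difference that chose the gene.

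The wider pathways were read from 3 lists of enzymes and carriers and a list of regulators. They were written by pathway, but with earlier results of these data known. Their counts, shares and adjusted p are therefore a description and support nothing by themselves. Of the 72 enzymes and carriers, 55 were tested, 5 were called higher, 2 were called lower and 48 did not pass the test. Ass1, 1 of the 5, passed the filter only through its si-circRtn4 libraries and so had to differ. Without it 4 of 54 were called higher and 2 lower. The median log2 difference of the 55, Ass1 included, was 0.08, beside 0.00197 over all genes tested. The share called was 11.1% without Ass1 and 12.7% with it, beside 9.19% of all genes. That last share still counts genes that passed the filter through 1 group, Ass1 among them. With the replicate number as a block 30.9% of the 55 were called, Ass1 included, against 19.0% of all genes, and this share was 23.8% in the serine list, 42.1% in the methionine list and 26.7% in the proline list.

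Of 25 enzymes and carriers of serine, glycine and folate, 21 were tested, 1 was called higher and 1 lower. Sdsl, a relative of serine dehydratase, which breaks serine down, fell from 14.5, 12.6 and 16.0 FPKM to 7.14, 6.39 and 9.92 FPKM, a log2 difference of -0.82 (SE 0.15, limma adjusted p = 0.0197). The groups did not overlap. With the replicate number as a block 4 genes of the list were called higher and 1 lower, against 9.29% and 9.75% of all genes.

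Of 25 enzymes of the methionine cycle and of cysteine and glutathione, 19 were tested, 1 was called higher and 1 lower. Got1, the cytosolic aspartate aminotransferase, which also acts on cysteine sulfinate, rose from 43.1, 39.7 and 54.3 FPKM to 67.0, 68.7 and 73.7 FPKM, a log2 difference of 0.61 (SE 0.12, limma adjusted p = 0.0214). Csad, which leads from cysteine sulfinate to taurine, was called lower at 2.81, 3.17 and 2.59 FPKM against 3.80, 4.07 and 4.14 FPKM, a log2 difference of -0.38 (SE 0.09, limma adjusted p = 0.0478). The Csad call was lost without any 1 of the 6 libraries (limma adjusted p = 0.0713 to 0.152), on TPM (limma adjusted p = 0.0843) and on recovered reads (limma-voom adjusted p = 0.0523). With the replicate number as a block 6 genes of the list were called higher and 2 lower, against 9.29% and 9.75% of all genes.

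Of 22 enzymes of proline, ornithine, aspartate and glutamate, 15 were tested and none was called lower. Leaving Ass1 aside, 2 of 14 were called higher, and Gpt2 was 1 of them. Over all genes, with none left aside, 4.36% were called higher. Gpt2, the mitochondrial alanine aminotransferase, rose from 19.2, 19.5 and 22.3 FPKM to 26.3, 28.7 and 27.5 FPKM, a log2 difference of 0.42 (SE 0.08, limma adjusted p = 0.0220). Ass1, argininosuccinate synthase, which uses aspartate, was at 0.549, 0.575 and 0.592 FPKM in si-NC and at 1.89, 3.57 and 1.40 FPKM in si-circRtn4, a log2 difference of 1.01 (SE 0.23). All si-NC values of Ass1 were under the 1 FPKM filter, so no test is given for it. With the replicate number as a block 3 genes of the list, Ass1 among them, were called higher and 1 lower, against 9.29% and 9.75% of all genes.

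The transcription factors known to act on these enzymes were Atf4, Ddit3, Cebpb, Cebpg, Nfe2l2, Myc, Mycn and Trp53, and all 8 were tested. Atf4 mRNA was at 392, 350 and 441 FPKM in si-NC and at 414, 468 and 457 FPKM in si-circRtn4. The groups overlapped, and the log2 difference was 0.18 (SE 0.11, limma adjusted p = 0.332), or 0.10 with si-NC replicate 2 left out. Atf4 was higher with si-circRtn4 in 3 of 3 pairs, by 0.08, 0.42 and 0.05 on log2(FPKM + 1), as 28.4% of all genes were. ATF4 is controlled largely at translation, which mRNA levels do not show. Cebpb, a partner of ATF4 on C/EBP-ATF response elements, was the 1 regulator called higher (limma adjusted p = 0.0334). It was at 39.0, 28.3 and 36.1 FPKM in si-NC and at 62.1, 67.2 and 46.3 FPKM in si-circRtn4, a log2 difference of 0.74 (SE 0.16). None was called lower. The groups did not overlap and si-circRtn4 was higher for 5 of the 8, Cebpb among them, and for 16.2% of all genes tested. They did not overlap and si-circRtn4 was lower for 0 of the 8 and for 15.5% of all genes. The median log2 difference of the 8 was 0.26, and the lowest adjusted p among those not called was 0.0527 (limma). With the replicate number as a block 3 regulators were called higher and 1 lower, 4 of the 8, where 19.0% of all genes were called.

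Most of these calls rest on all 6 libraries. Of the 6 fits that leave out 1 library, Got1 (0.0130) and Gpt2 (0.0305) kept their calls only in that without si-NC replicate 3, each value being a limma adjusted p. The Sdsl call was kept with si-NC replicate 2 left out (0.0467) or with si-circRtn4 replicate 3 left out (0.0112), and the Cebpb call with si-NC replicate 1 left out (0.0444) or with si-circRtn4 replicate 3 left out (0.0229), again as limma adjusted p. With 1 library left out, the limma adjusted p of these 4 genes was at most 0.107, for Cebpb without si-circRtn4 replicate 2, and each of the 4 calls was lost without a filter on low values.

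**Figure D4:**
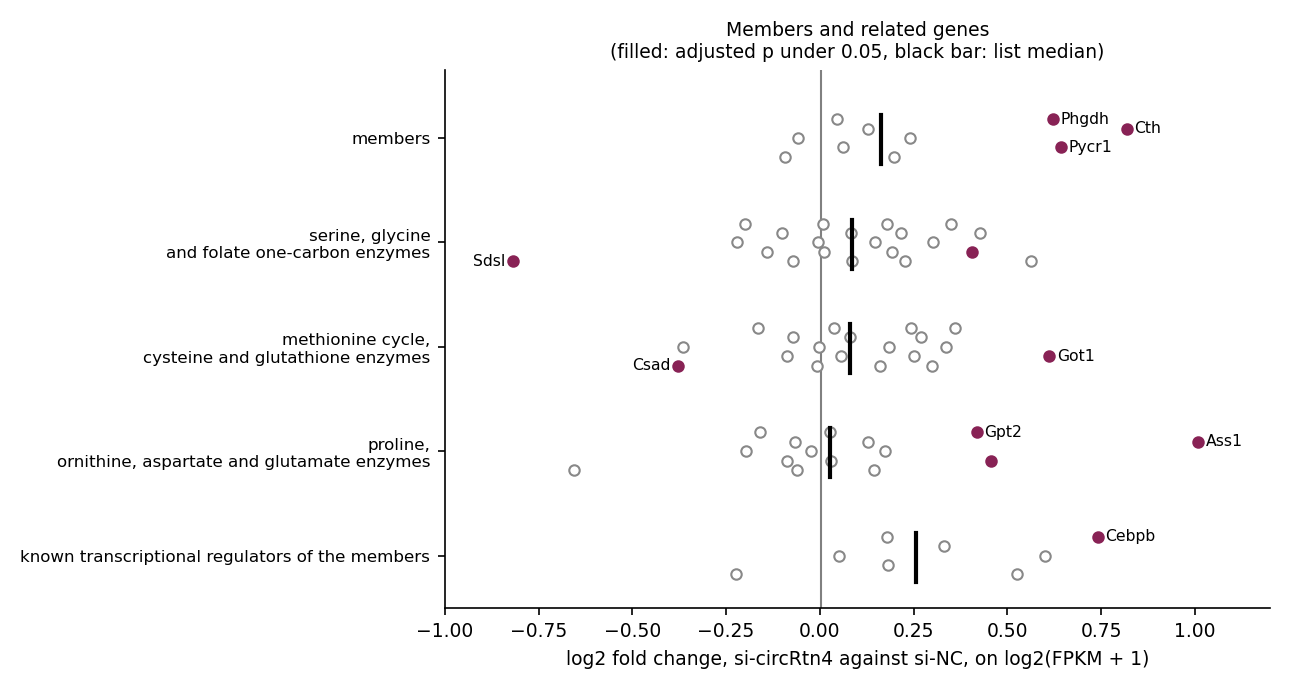
Log2 difference between si-circRtn4 and si-NC on log2(FPKM + 1) (horizontal axis) of each tested gene of the set and of the 4 related lists (rows), with the list median as a black bar and the median of all genes as the grey line. Genes at an adjusted p under 0.05 are filled, those described in the text are named, and Ass1 at 1.01, which passed the filter through si-circRtn4 only, and Sdsl at -0.82 lie farthest out.

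The promoters were compared over the window from 250 bases before to 50 bases after the RefSeq start (GRCm38.p6), which was given for 9 of the 10 genes and not for Cth. Each motif was searched on both strands. TGATGNAA was found in Asns and Pycr1, 2 of 9 genes, and in 3.97% of 32851 promoters. Its form TGATGCAA was found in Pycr1 and in 0.895% of all promoters. CACGTG, the E-box read by MYC and other factors, was found in Aldh18a1 and Cbs and in 7.15% of all promoters. TGACNNNGC was found in Asns, Phgdh and Psph and in 12.4% of all promoters. The CACGTG genes Aldh18a1 and Cbs were among the 7 whose groups overlapped, and the TGATGNAA genes held both 1 that overlapped, Asns, and 1 that did not, Pycr1. Of the TGACNNNGC genes, Asns and Psph overlapped between the groups and Phgdh did not. A match of letters is a description and shows no binding.

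Sites for small RNAs were read in each gene's 3′ UTR, the longest one annotated (GENCODE M21, GRCm38), because the study concerns miR-24-3p and because an siRNA guide can pair with other mRNAs through its seed. The guide is taken as the reverse complement of the strand listed for si-circRtn4. The seeds (bases 2 to 8) are in capitals.
mmu-miR-24-3p: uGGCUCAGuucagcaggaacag
si-circRtn4 guide: aAAAGGGTctcatctgaag

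The letters CTGAGCC, which pair with the seed of miR-24-3p, were found in Mthfd2 (chr6:83306632-83306638) and Pycr1 (chr11:120637190-120637196), 2 of 10 genes, and in 21.6% of 10692 genes tested that have an annotated 3′ UTR. In both genes the next base was A. The letters ACCCTTT, which pair with the guide seed, were found in Pycr1 (chr11:120636563-120636569), 1 of 10 genes, and in 13.1% of the 10692. All these genes lie on the minus strand, and the sites are in capitals.
Mthfd2, miR-24-3p site: tagcagcactCTGAGCCagcccgagag
Pycr1, miR-24-3p site: actccagagcCTGAGCCacctcctgga
Pycr1, guide site: gcatttacatACCCTTTgaaaagtccc

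Pycr1, which holds both kinds of site, was higher in si-circRtn4 in each library, and Mthfd2, which holds a miR-24-3p site, overlapped between the groups. The other 8 genes held neither word in that UTR, which ranged in length from 133 bases in Phgdh to 4296 bases in Cbs. The deposited length of Cbs is only 3343 bases and its coordinates differ from those of GENCODE M21. Its FPKM and its UTR therefore rest on different gene models.

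By pattern over the 6 libraries, the protein-coding genes most like the median profile of the 10 enzymes were Gm8797 (Pearson r = 0.99), Yrdc (0.99), Plbd2 (0.98), Tti2 (0.98) and Fbxw2 (0.98). By deviations from the group means they were Lgmn (r = 0.998), Gm8797 (0.997), Sstr2 (0.99), Fcf1 (0.99) and Cpsf1 (0.99). Yrdc, for example, was at 21.5, 22.4 and 28.7 FPKM in si-NC and at 23.6, 27.3 and 29.9 FPKM in si-circRtn4, with its highest si-NC value in replicate 3 and its lowest si-circRtn4 value in replicate 1. None of these 9 genes was called between the groups. A high r over 6 libraries, picked from the other protein-coding genes among the 12749 tested, is a description.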

How the data were processed

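RNA-seq was measured in 6 libraries of N2a cells, grouped by their labels as si-NC or si-circRtn4 (3 each). The authors deposited FPKM per gene, with gene lengths and coordinates. The submitters' processing notes name Bowtie 0.12.2 and the builds mm8 and mm9 without a role, yet 98.3% of the listed genes have their GRCm38 coordinates of GENCODE M21. Of the 10 members 9 do, and Cbs does not. A strand setting is not given in the sources used here. A further 6 value columns belong to no sample of the series and were left out. FPKM times gene length gave whole multiples of 1 read for 100% of values (tolerance 0.05 reads), from which reads were recovered.

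The test took the 12749 genes (of 28442 above 0) whose mean reached 1 FPKM. Values entered as log2(FPKM + 1), and the two-sided moderated test of limma 3.58.1 (R 4.3.3) was used, its variances shrunk towards a trend on mean level and without robust fitting, with Benjamini-Hochberg adjustment over all of them and calls at an adjusted p under 0.05. The written design can also be read as without the trend, and that fit is among the alternatives. A difference on this scale understates the change of genes near 1 FPKM. The remaining work used Python 3.11.15 with pandas 2.3.3, numpy 2.4.6, scipy 1.17.1 and matplotlib 3.10.9. The fit was tested on simulated data.

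The members and lists were chosen with earlier results of these data known. For this reason no p-value is given for a member. Genes named were the 10 members, of each related list up to 3 called genes in each direction, the isozymes, Atf4, and the 5 protein-coding genes most like the members by each of 2 measures. Pycr3 is listed under its older symbol Pycrl, and of Ddit3 and Gcat, each listed under 2 gene IDs, the ID with the higher mean was used. Some genes counted among the calls and isozymes are not reported here.

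Over all genes tested, the r of deviations was 0.33, 0.19 and 0.23 for libraries of the same number and at most 0.0091 for others. Deviations are centred within each group, so an r above 0 for the same number pushes the others down. The labels give the numbers and no pairing, so whether the libraries are pairs is not known. A fit with the number as a block was therefore run beside the unblocked one. Other alternatives were a pseudocount of 0.1, no filter, a mean of at least 5 FPKM, TPM, TPM without the short gene Gm23935, quantile normalization, limma-voom on recovered reads, leaving out each library, and, chosen after the data were seen, no trend.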

Additional observations from a re-analysis of the deposited data

How the results depend on the processing

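Without a filter on low values 210 genes were higher and 261 lower in si-circRtn4, against 556 and 615, 1 member was higher, and in each of the 4 related lists 0 genes were higher, as 0 were lower in the serine and the methionine lists. At a mean of at least 5 FPKM, where Cbs was not tested, 2 serine list genes, 3 methionine list genes and 3 regulators were higher and 0 methionine list genes lower. On TPM 977 genes were higher and 400 lower, so 71.0% of calls were higher against 47.5%, with the median of all genes shifted by 0.080. There, 3 serine list genes, 5 methionine list genes and 4 regulators were higher, 0 methionine list genes were lower, and Psat1 turned to 0.0349. On TPM without Gm23935, 2 regulators were higher and 0 methionine list genes lower. Quantile normalization gave 2 methionine list genes and 2 regulators higher, and a pseudocount of 0.1 gave 2 methionine list genes. On recovered reads (limma-voom) 902 genes, 3 serine list genes, 5 methionine list genes and 4 regulators were higher and 0 methionine list genes lower. Without the mean-variance trend every count was within 1.5 times and no named gene changed its call. With TGATGCAA alone 1 member promoter matched, against 2 with TGATGNAA. The causes of these shifts were not tested.

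With the replicate block, 1185 genes were higher and 1243 lower, and 3 members were higher. It gave 4 serine list genes, 6 methionine list genes and 3 regulators higher, and 2 methionine list genes, 1 proline list gene and 1 regulator lower. No other count moved and no named gene changed its call under the block.

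With 1 library left out, 157 to 406 genes were higher and 212 to 416 lower, lowest without si-NC replicate 2, and 1 to 3 members were higher. Higher counts were 0 to 1 in the serine list, 0 to 1 in the methionine list, 0 to 2 in the proline list and 0 to 1 among the regulators. Lower counts were 0 to 1 in the serine list, 0 in the methionine list and 0 to 1 in the proline list. The differences ranged from -0.13 to 0.0339 for Psat1, -0.0392 to 0.18 for Shmt2 and -0.0047 to 0.17 for Mthfd2. Among the 10 members Cbs had the fewest reads, 133 to 222 per library. With 3 libraries per group, small differences such as that of Asns cannot be told from none.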
